A study of Homo sapiens with 9 samples.

Results

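The BCL2 family decides whether the outer mitochondrial membrane stays sealed or is permeabilised, the step that commits a cell to intrinsic apoptosis. The 10 genes followed here were taken by symbol from every count file, and all 10 were found among 44608 entries and passed the low-count filter that left 14815 genes. They are the survival genes BCL2, BCL2L1 (BCL-XL), BCL2L2 (BCL-W), BCL2A1 (BFL-1) and MCL1, the pore-forming effector BAK1, and the BH3-only death genes BCL2L11 (BIM), BID, BMF and BIK.

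Survival proteins hold effectors and BH3-only proteins in a groove on their surface. BH3-only proteins either fill that groove or activate the effectors directly, and the effectors then assemble into pores that release cytochrome c. Several survival genes, BCL2A1 and BCL2L1 among them, are known transcriptional targets of NF-kB, and BCL2A1 is best known from blood cells.

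The cells were U2OS, a human osteosarcoma line, and all groups received siRNA at 75 nM with a lipid transfection reagent and were harvested 48 h later. The groups were a non-silencing siRNA (siNS), an siRNA against NFKB2 (siNFKB2), which encodes the p100 precursor of the NF-kB subunit p52, and an siRNA against RELB (siRELB), which encodes the usual partner of p52. Each group had 3 libraries of oligo-dT selected RNA. No source used here gives the siRNA sequences or says whether 1 or several siRNAs were used per target. Replicates are numbered without a statement on separate cultures, and the p-values therefore reflect library-to-library spread that may be partly technical. RNA came from whole cultures, in which fewer cells expressing a gene and less of its RNA per cell cannot be told apart.

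Total counts ran from 15011789 to 19279572 per library, so that a level of 1 CPM (the count scaled to the library's size, by the TMM method) stood for 15.1 to 19.5 reads. NFKB2 was left at 4.86%, 21.1% and 44.8% of its siNS mean in siNFKB2 replicates 1 to 3, and RELB at 9.79%, 17.1% and 19.7% in siRELB replicates 1 to 3 (edgeR adjusted p = 0.0210 and 0.00881). Mitochondrial rRNA took 0.379% to 2.68% of counts, the most in siNFKB2 replicate 3. Of 8 osteosarcoma and mesenchymal markers, SPARC, COL1A1 and VIM were abundant, RUNX2 was at 11.8 ± 1.82 CPM in siNS, TWIST1 had no count in any library and SP7 had at most 1. In siNFKB2 against siNS, where 26.1% of all genes tested were called, 3 of the 6 tested markers fell and 1 rose. RUNX2 fell to 4.59 ± 0.995 CPM (adjusted p = 0.000941), and ALPL rose from 5.07 ± 1.54 to 20.6 ± 10.2 CPM (log2 2.02, adjusted p = 0.00495). The summed level of that list was 4513 to 5914 CPM in siNS, 4194 to 4500 CPM in siNFKB2 and 4225 to 5231 CPM in siRELB. Of 6 epithelial markers, KRT8 and KRT18 made up nearly all of a summed level of 630 to 929 CPM in siNS, 573 to 676 CPM in siNFKB2 and 635 to 721 CPM in siRELB. KRT8 fell from 266.9 to 139.2 CPM in siNFKB2 (adjusted p = 0.00150), and CDH1, at 1.47 CPM in siNS, rose to 2.60 CPM in siNFKB2 (adjusted p = 0.0301) and 3.34 CPM in siRELB (0.0352). The part of these markers and of the rRNA share in the results was not tested.

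The promoters of BCL2A1 and BMF, the members with the largest rise and the largest fall, are shown so that their start regions can be read beside the values. Each is given as the 250 bases before a start annotated by RefSeq on GRCh38.p14, 5′ to 3′ on the gene's strand. Capitals mark TATAAA in BCL2A1 (chr15:79971197-79971446, minus strand) and the kappa-B consensus in BMF (chr15:40108880-40109129, minus strand). The GENCODE 29 annotation places both gene starts further upstream. There BCL2A1 begins at 79971446, so the whole printed window and its TATAAA lie inside the gene. BMF begins there at 40108892, inside the marked kappa-B match. BMF has another annotated start, whose window (chr15:40106967-40107216, minus strand) held none of the motifs searched and is not printed.
BCL2A1: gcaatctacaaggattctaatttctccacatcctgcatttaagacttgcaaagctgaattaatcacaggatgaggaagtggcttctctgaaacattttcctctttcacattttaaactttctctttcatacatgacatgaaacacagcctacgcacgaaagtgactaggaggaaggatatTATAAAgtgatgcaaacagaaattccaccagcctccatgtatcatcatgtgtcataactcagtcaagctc
BMF: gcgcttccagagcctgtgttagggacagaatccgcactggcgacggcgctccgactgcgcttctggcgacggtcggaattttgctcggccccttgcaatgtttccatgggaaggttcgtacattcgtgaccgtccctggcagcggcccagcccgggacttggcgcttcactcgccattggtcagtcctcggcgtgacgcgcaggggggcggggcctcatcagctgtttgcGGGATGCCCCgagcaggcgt
Motifs were searched on both strands of windows reaching 50 bases past the RefSeq start, from which positions are counted. They were the kappa-B consensus bound by NF-kB dimers, the TATA box TATAAA, and the sequence TGANTCA, a site of AP-1 factors. In BCL2A1 the TATA box letters lay at bases -70 to -65, BCL2L1 held them at -208 to -203 and at -125 to -120, and 11.5% of 35116 promoters held them. The kappa-B match in BMF lay at bases -20 to -11, and 11.3% of promoters held that consensus. Promoters of 7 members were matched, in 13 windows, of which 2 held TATAAA, and 1 of BMF held the only kappa-B match, while TGANTCA, present in 7.71% of all promoters, was in none of them. BCL2L2, MCL1 and BIK were not matched.

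Levels of different genes were compared per kilobase of exon (GENCODE 29, GRCh38). In siNS, BCL2L1 (82.9 ± 4.41 CPM per kb, n = 3) and MCL1 (74.4 ± 11.7 CPM per kb) stood first and second, and their ranges overlapped. BAK1 followed at 20.4 ± 2.01 CPM per kb, apart from both neighbours. BID (10.3 ± 2.20), BCL2L2 (8.41 ± 0.995) and BIK (8.08 ± 2.56 CPM per kb) overlapped one another. BCL2L11 was at 3.58 ± 0.261 CPM per kb, and BCL2 (1.23 to 2.00 CPM per kb) and BCL2A1 (0.861 to 1.66 CPM per kb) overlapped below it. BMF was the lowest of the 10 at 0.536 ± 0.0898 CPM per kb. The control cells thus carried mainly BCL2L1 and MCL1 transcripts among the survival genes and little BCL2 or BCL2A1.

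The first comparison asked how the family changed when NFKB2 was depleted. Against siNS, 3 of the 5 survival genes rose (BCL2A1, BCL2L1 and MCL1), the effector BAK1 fell, and 1 of the 4 BH3-only genes, BMF, fell. That is 5 of 10 members called, where 26.1% of all genes tested were called in this comparison (12.6% higher and 13.5% lower). The members' median log2 fold change was 0.14, against -0.00 over all genes. The libraries of the groups did not overlap for 6 members, 3 above and 3 below, where 37.4% of all genes did not overlap (18.8% above and 18.6% below).

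**Figure D1:**
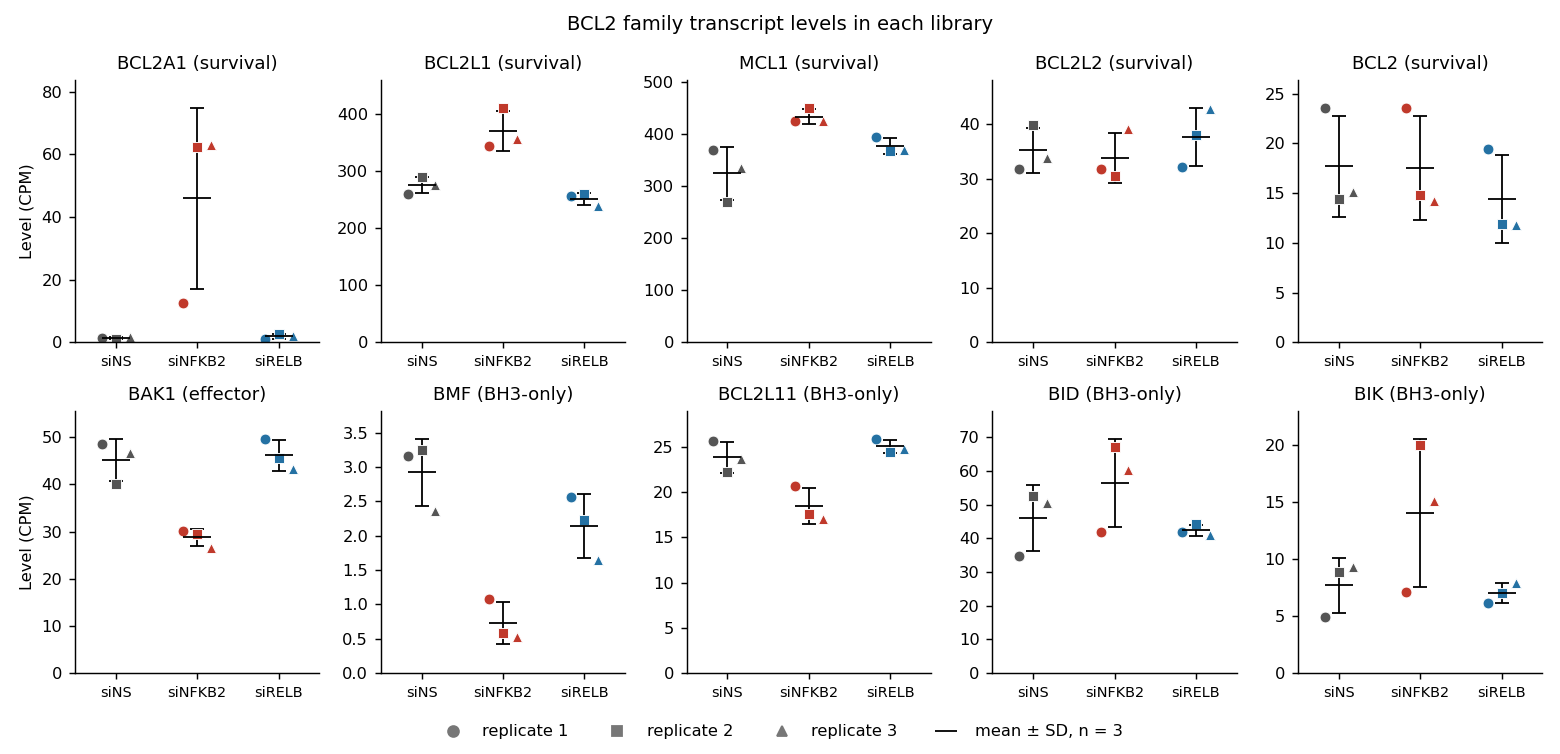
Level of each BCL2 family member (CPM, linear axes from 0, 1 panel per gene) in 3 siNS, 3 siNFKB2 and 3 siRELB libraries, with marker shape for the replicate number and bars for the mean ± SD (n = 3). BCL2A1 sits between 12.6 and 63.0 CPM in siNFKB2 and at or below 2.66 CPM in the other 6 libraries, and BAK1 is below 31 CPM in siNFKB2 and above 40 CPM elsewhere.

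BCL2A1 (ENSG00000140379, chromosome 15, 79960889 to 79971446, minus strand, GRCh38, GENCODE 29) encodes a short-lived survival protein. Its level was 1.26, 0.938 and 1.81 CPM in siNS replicates 1 to 3, from 24, 15 and 33 reads, and 12.6, 62.3 and 63.0 CPM in siNFKB2, from 235, 1074 and 952 reads. Every siNFKB2 library was above every siNS library, with replicate 1 well below the other two. The log2 fold change was 5.09 (SE 0.625, 95% interval 3.70 to 6.47, adjusted p = 0.000504 by edgeR's quasi-likelihood test), or 33.9-fold. Between libraries of the same number the log2 differences were 3.32, 6.05 and 5.12. The siNFKB2 library with the least NFKB2 left, replicate 1, was also the one with the lowest BCL2A1. With 3 libraries no relation between them was tested.

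Blood cell markers were read beside BCL2A1. CD3E and LYZ had no count in any of the 9 libraries, PTPRC had 2 to 9 reads, and 2 of the 8 markers passed the filter. Their summed level was 1.43 to 2.58 CPM in siNS, 4.24 to 5.69 CPM in siNFKB2 and 1.54 to 2.39 CPM in siRELB. ITGAM, an integrin of myeloid cells, rose from 1.20 ± 0.262 CPM to 3.67 ± 0.645 CPM in siNFKB2 (log2 1.61, adjusted p = 0.00722), and was named after its value was seen. The part of these markers in the BCL2A1 result was not tested.

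BCL2L1 (chromosome 20, 31664452 to 31723989, minus strand) encodes BCL-XL, and a shorter spliced form with the opposite activity that counts per gene do not separate. It was at 259.9, 289.1 and 275.6 CPM in siNS and 342.9, 410.0 and 355.8 CPM in siNFKB2. All 3 siNFKB2 libraries were higher, by 0.40, 0.50 and 0.37 (log2) between libraries of the same number. The log2 fold change was 0.43 (SE 0.105, adjusted p = 0.0139). The antisense gene ABALON covers 43.0% of the exonic length of BCL2L1 on the other strand, and strand use in counting is not given. ABALON itself was at 6.02 ± 1.80 CPM in siNS and 9.65 ± 1.84 CPM in siNFKB2 (adjusted p = 0.144).

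MCL1 (chromosome 1, 150574551 to 150579738, minus strand) encodes a survival protein that is quickly degraded, so that its level follows its synthesis. It was at 370.1, 269.7 and 335.3 CPM in siNS and 425.5, 450.8 and 424.7 CPM in siNFKB2. The siNFKB2 libraries were tight and lay above the scattered siNS libraries. The log2 fold change was 0.42 (SE 0.122, adjusted p = 0.0298). This call was lost under 8 of 16 alternatives. Leaving out siNS replicate 2 or 3 gave an adjusted p of 0.0752 or 0.0833, leaving out siNFKB2 replicate 2 or 3 gave 0.105 or 0.0748, and leaving out siRELB replicate 2 or 3 gave 0.0550 or 0.0551. It was also lost with no low-count filter (0.0687) and with only the 6 libraries compared (0.0815), and the log2 value stayed between 0.30 and 0.53.

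The remaining survival genes did not pass the test. BCL2L2 (chromosome 14, 23298790 to 23311759, plus strand) was at 31.9, 39.9 and 33.9 CPM in siNS and 31.9, 30.6 and 39.1 CPM in siNFKB2, with overlapping groups (log2 -0.06, 95% interval -0.40 to 0.29, adjusted p = 0.829). The read-through gene BCL2L2-PABPN1 covers 19.4% of the exonic length of BCL2L2 and was listed at 0 in every library. BCL2 (chromosome 18, 63123346 to 63320128, minus strand), the founding member, was at 23.5, 14.4 and 15.1 CPM in siNS and 23.6, 14.8 and 14.2 CPM in siNFKB2 (log2 -0.01, 95% interval -0.63 to 0.61, adjusted p = 0.983). In both groups its replicate 1 was the highest library.

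BAK1 (chromosome 6, 33572547 to 33580293, minus strand) encodes a pore-forming effector that sits on the mitochondrial membrane. It was at 48.5, 40.1 and 46.7 CPM in siNS and 30.1, 29.5 and 26.6 CPM in siNFKB2. No siNFKB2 library reached the lowest control, and the fall was 0.69, 0.44 and 0.81 (log2) between libraries of the same number. The log2 fold change was -0.65 (SE 0.123, adjusted p = 0.00415), which leaves 63.8% of the siNS level, and the call held under all 16 alternatives (log2 -0.73 to -0.59).

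BMF (chromosome 15, 40087890 to 40108892, minus strand) encodes a BH3-only protein known for its response to loss of cell attachment. Its level was low throughout, with 60, 52 and 43 reads in siNS (3.16, 3.25 and 2.36 CPM) and 20, 10 and 8 reads in siNFKB2 (1.07, 0.580 and 0.529 CPM). The groups did not overlap. The log2 fold change was -1.98 (SE 0.328, 95% interval -2.70 to -1.25, adjusted p = 0.00215), so 25.4% of the siNS level remained. The call held under all 16 alternatives, although counts of 8 to 20 leave the size imprecise. The antisense gene BMF-AS1 shares 8.46% of the exonic length of BMF. It has no entry under that name among the counts, so its reads could not be set beside those of BMF.

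BCL2L11 (chromosome 2, 111119378 to 111168447, plus strand) encodes BIM, which binds all survival proteins. It was at 25.7, 22.2 and 23.7 CPM in siNS and 20.7, 17.6 and 17.1 CPM in siNFKB2, with no overlap. The adjusted p was 0.0561 (log2 -0.37, SE 0.127), above the threshold, and 4 alternatives placed it below, DESeq2 among them (0.0461), as did leaving out siNFKB2 replicate 1 (0.0268). MIR4435-2HG, a long noncoding RNA gene with 1358 to 1953 reads per library, covers 10.9% of the exonic length of BCL2L11 on the other strand.

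BID and BIK, the other BH3-only genes, had higher means in siNFKB2 without passing. BID (chromosome 22, 17734138 to 17774770, minus strand), which caspase-8 cleaves to link death receptors to mitochondria, was at 34.7, 52.5 and 50.7 CPM in siNS and 41.8, 67.2 and 60.4 CPM in siNFKB2 (log2 0.30, adjusted p = 0.304). BIK (chromosome 22, 43110748 to 43129712, plus strand), a BH3-only protein of the endoplasmic reticulum, was at 4.89, 8.88 and 9.33 CPM in siNS and 7.09, 20.0 and 15.1 CPM in siNFKB2 (log2 0.87, 95% interval 0.09 to 1.65, adjusted p = 0.0956). In both genes replicate 1 was the lowest library of its group, and siNFKB2 replicate 1 lay below the upper siNS libraries. Without siNFKB2 replicate 1 the log2 value of BIK was 1.19 (adjusted p = 0.00959), with no low-count filter it was 0.84 (0.0394), and with the 3 libraries numbered 1 left out BIK was at 0.95 (0.000859) and BID at 0.31 (0.0308).

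The second comparison asked the same of RELB. This comparison shares its siNS libraries with the first. None of the 10 members was called between siRELB and siNS by edgeR or DESeq2. None had an unadjusted edgeR p below 0.05, where at least 2475 of all 14815 genes did. In this comparison 2.02% of all genes tested were called (1.21% higher and 0.81% lower), so a count of 0 among 10 is near that background. The members' log2 values lay between -0.44 (BMF) and 0.45 (BCL2A1), with adjusted p from 0.398 to 0.918.

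**Figure D2:**
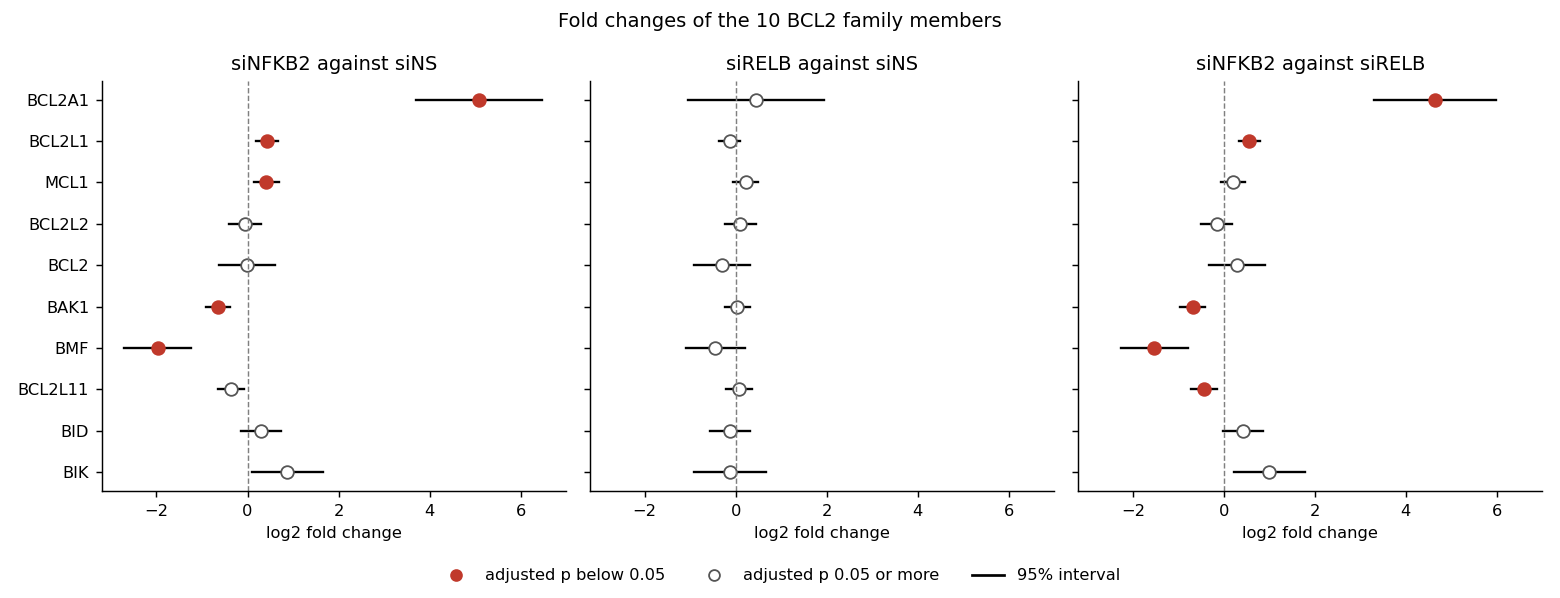
Log2 fold change of the 10 members (points) with 95% intervals (lines) in 3 comparisons, filled where the adjusted p was below 0.05. In siNFKB2 against siNS, BCL2A1 is at 5.09 and BMF at -1.98, whereas in siRELB against siNS every interval crosses 0.

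BCL2A1 was at 1.02, 2.66 and 1.86 CPM in siRELB, overlapping the siNS libraries (log2 0.45, 95% interval -1.04 to 1.94). BAK1 was at 49.7, 45.5 and 43.2 CPM, a difference from siNS of log2 0.03 (95% interval -0.24 to 0.30), an interval that leaves out a fall of the size seen in siNFKB2. BCL2L1 was at 255.0, 258.9 and 238.8 CPM, below each siNS library and the single member without overlap here, where 22.5% of all genes did not overlap, 12.3% above and 10.2% below (log2 -0.13, adjusted p = 0.566). MCL1 was at 395.6, 368.3 and 370.4 CPM, and its lowest siRELB library lay below the highest siNS library (log2 0.22, adjusted p = 0.398). BMF was at 2.56, 2.22 and 1.64 CPM, overlapping siNS and above all siNFKB2 libraries (log2 -0.44, 95% interval -1.09 to 0.21, adjusted p = 0.482). BCL2L11 was at 25.9, 24.5 and 24.8 CPM (log2 0.07), BID at 41.9, 44.3 and 41.0 CPM (log2 -0.12) and BIK at 6.15, 7.05 and 7.93 CPM (log2 -0.13). BCL2L2 was at 32.2, 38.1 and 42.8 CPM (log2 0.10) and BCL2 at 19.5, 11.9 and 11.8 CPM (log2 -0.30).

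The knockdowns were then compared directly, which tests whether the family differed between them. Of the 10 members, BCL2A1 and BCL2L1 were higher and BAK1, BMF and BCL2L11 lower in siNFKB2 than in siRELB, where 26.6% of all genes tested were called (12.2% higher and 14.3% lower). The libraries did not overlap for 6 members, 3 above and 3 below, where 46% of all genes did not overlap (22.3% above and 23.6% below). BCL2A1 differed by log2 4.64 (SE 0.602, adjusted p = 0.000640), BCL2L1 by 0.56 (SE 0.105, adjusted p = 0.00387), BAK1 by -0.68 (SE 0.123, adjusted p = 0.00322) and BMF by -1.53 (SE 0.331, adjusted p = 0.00776). These 4 calls held under all 16 alternatives. BCL2L11 differed by -0.44 (SE 0.127, adjusted p = 0.0275), a call lost with no low-count filter (0.0734) and without siNS replicate 3 (0.0543), siNFKB2 replicate 2 (0.118), siNFKB2 replicate 3 (0.110) and siRELB replicates 1, 2 and 3 (0.0805, 0.0776 and 0.0809).

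MCL1 was not called between the knockdowns (log2 0.20, 95% interval -0.07 to 0.47, adjusted p = 0.258), although all siNFKB2 libraries lay above all siRELB libraries. Its rise against siNS is therefore not shown to differ from its value in siRELB. In the main model, which has no block, BIK (log2 1.00, adjusted p = 0.0610) and BID (0.41, adjusted p = 0.151) were not called either. Deviations of same-numbered siNFKB2 and siRELB libraries correlated at 0.535, 0.171 and 0.450. With the replicate number as a block both genes were called, BIK at 0.90 (adjusted p = 0.00459) and BID at 0.38 (0.0359). Without siNFKB2 replicate 1 they were at 1.32 (0.00565) and 0.59 (0.0316), and BIK passed without siNS replicate 1 (0.0315). Both also passed with the 3 libraries numbered 1 left out, and BIK passed with DESeq2 and with no low-count filter. BCL2 (0.29, adjusted p = 0.489) and BCL2L2 (-0.16, adjusted p = 0.495) did not pass.

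The makeup of the survival transcripts was set out per library from the levels per kilobase, as a description with no test. BCL2A1 made up 0.667%, 0.536% and 0.973% of the sum of the 5 survival genes in siNS and 5.22%, 19.6% and 21.2% in siNFKB2, against 0.529%, 1.39% and 1.01% in siRELB. By group means it was the ninth of the 10 members in siNS and the third in siNFKB2, at 42.2 ± 26.5 CPM per kb. In siNFKB2 replicate 1 it was at 11.6 CPM per kb, below BAK1 at 13.6, and in siNS its range overlapped that of BCL2. BCL2L1 still held 46.6%, 42.3% and 39.3% of the sum in siNFKB2, and MCL1 43.8%, 35.2% and 35.6%. The sum itself was 168 ± 6.99 CPM per kb in siNS, 263 ± 36.4 in siNFKB2 and 174 ± 4.06 in siRELB, with every siNFKB2 library above all others. The sum of the 4 BH3-only members was 17.4, 25.1 and 25.2 CPM per kb in siNS and 20.1, 38.9 and 32.1 in siNFKB2, and these groups overlapped. BH3-only genes outside the 10 members are expressed too and are left out of this sum, which is not the cells' whole BH3-only level.

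**Figure D3:**
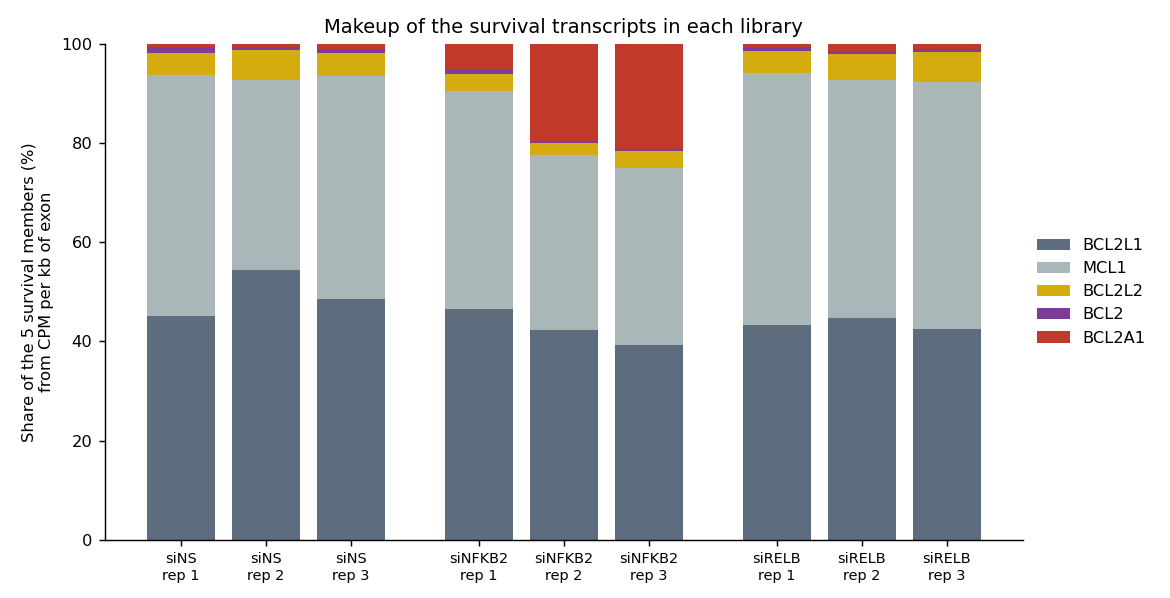
Share (%) of each survival gene in the summed level per kilobase of the 5 survival genes, 1 stacked bar per library from 0 to 100%. BCL2A1 takes 5.22% to 21.2% in the siNFKB2 libraries and at most 1.39% in the siNS and siRELB libraries, and BCL2L1 and MCL1 make up most of every bar.

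Other BCL2 family genes were read from a list of 13, of which 10 passed the low-count filter. In siNFKB2 against siNS, 1 rose and 2 fell, where 26.1% of all genes were called, so that the list's share is near the background. Its median log2 fold change was 0.08, against -0.00 over all genes. BNIP3, an atypical member that also marks mitochondria for removal, was at 39.6 ± 6.81 CPM in siNS and rose to 76.6 ± 24.5 CPM in siNFKB2 (log2 0.95, SE 0.225, adjusted p = 0.0115). BOK, an effector related to BAK1, fell from 79.0 ± 13.4 to 53.9 ± 3.46 CPM (log2 -0.55, adjusted p = 0.0149). BCL2L12 was at 41.3 ± 12.7 CPM in siNS and fell to 23.6 ± 3.23 CPM in siNFKB2 (log2 -0.81, adjusted p = 0.0259). IRF3 covers 33.1% of its exonic length on the other strand. Without siNFKB2 replicate 2, only 1 of this list was called, as lower, so BNIP3 lost its call. Without siNFKB2 replicate 3 or siNS replicate 3, only 1 was called, as higher, so BOK and BCL2L12 lost theirs. The list had 5 calls without siNS replicate 1, and 9 with the 3 libraries numbered 1 left out. Over all genes, calls went from 3869 to 6711 in that last setting. BAX, the closest relative of BAK1 in function, averaged 216.7 CPM in siNS and 212.5 CPM in siNFKB2 (log2 -0.03, SE 0.201, adjusted p = 0.940). In siRELB against siNS, where 2.02% of all genes were called, none was called by edgeR or DESeq2. By edgeR 1 had an unadjusted p below 0.05, as had at least 2475 of all 14815 genes. With the 3 libraries numbered 1 left out, 3 were called lower by edgeR, where calls over all genes went from 299 to 3390. Between the knockdowns 2 were higher in siNFKB2, BNIP3 (log2 1.29, adjusted p = 0.00277) and BCL2L13 (0.58, adjusted p = 0.0180), where 26.6% of all genes were called. With the replicate block 6 of the list were called, 3 higher and 3 lower, and calls over all genes went from 3934 to 6054.

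Death receptors, caspases and their inhibitors act before and after the mitochondrial step. Of 23 listed genes 22 were tested, and in siNFKB2 against siNS 5 rose and 5 fell, where 26.1% of all genes were called. The median was 0.08. BIRC3, an inhibitor of apoptosis and ubiquitin ligase, was at 34.8 ± 11.2 CPM in siNS and rose to 301.7 ± 151.1 CPM in siNFKB2 (log2 3.11, SE 0.391, adjusted p = 0.000560). TNFRSF10B, a receptor for the death ligand TRAIL, rose from 208.6 ± 21.0 to 382.7 ± 72.9 CPM (log2 0.88, adjusted p = 0.00394). CFLAR, which restrains caspase-8 at those receptors, also rose (log2 0.57, adjusted p = 0.00934). CASP6, an executioner caspase, fell by 0.73 on the log2 scale (adjusted p = 0.0125), and CASP2 by 0.78 (0.0181). The count of 10 calls became 4 without siNS replicate 3, without siNFKB2 replicate 2 and without siNFKB2 replicate 3, 6 with only the 6 libraries compared, and 17 with the 3 libraries numbered 1 left out. Over all genes the calls under these settings were 2352, 2220, 2647, 2670 and 6711 in the same order.

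**Figure D4:**
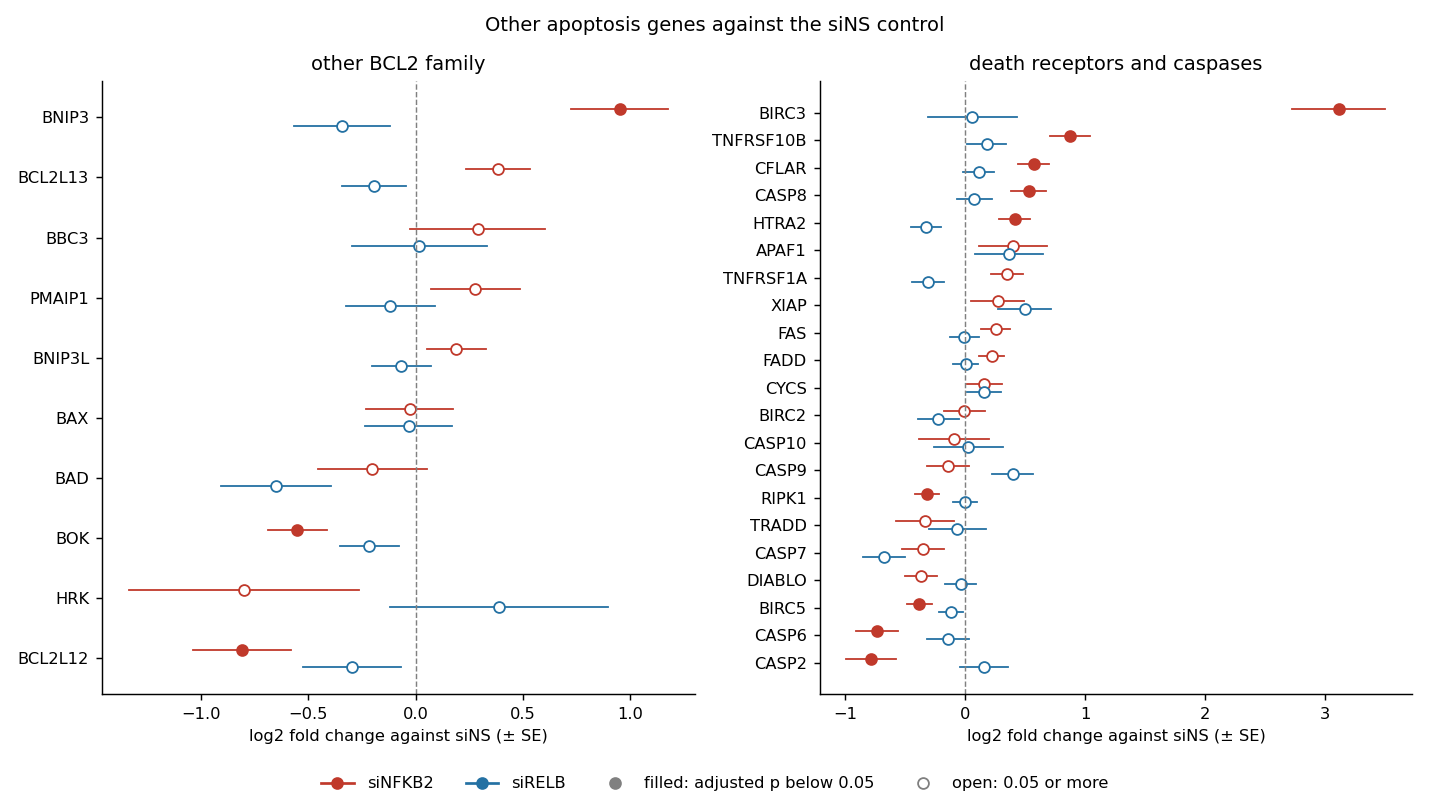
Log2 fold change against siNS (points, ± SE as lines) of 10 other BCL2 family genes and of the tested death receptor and caspase genes, 1 left out, in siNFKB2 (red) and siRELB (blue), filled where the adjusted p was below 0.05. BIRC3 stands at 3.11 in siNFKB2 and 0.06 in siRELB, and no siRELB point is filled.

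In siRELB against siNS, where 2.02% of all genes were called, edgeR called none of the 22 and DESeq2 called 1. By edgeR 5 had an unadjusted p below 0.05, as had at least 2475 of all 14815 genes. With the 3 libraries numbered 1 left out, edgeR called 6 of the list, where calls over all genes went from 299 to 3390. Between the knockdowns 6 were higher and 5 lower in siNFKB2, where 26.6% of all genes were called (12.2% higher and 14.3% lower). The total of 11 became 13 with the replicate block, where calls over all genes went from 3934 to 6054. It became 5 without siNFKB2 replicate 2 and 6 without siNFKB2 replicate 3, siRELB replicate 2 or siRELB replicate 3. These last totals stand without their counts over all genes and are not read as results about the list. BIRC3 (log2 3.05, adjusted p = 0.000612), HTRA2, a mitochondrial protease released during apoptosis (0.74, adjusted p = 0.00257), TNFRSF1A, the main TNF receptor (0.66, adjusted p = 0.00556), and TNFRSF10B (0.70, adjusted p = 0.0115) were higher. CASP2 (-0.94, adjusted p = 0.00793) was lower. AUP1 and LOXL3 cover 16.1% and 20.8% of the exonic length of HTRA2 on the other strand.

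Regulators of MCL1 and BIM were read from a list of 13, all tested. In siNFKB2 against siNS 1 was called, where 26.1% of all genes were. It was MAPK3 (ERK1), whose pathway phosphorylates BIM and marks it for degradation. It rose from 39.7 ± 2.40 to 56.2 ± 4.84 CPM (log2 0.50, adjusted p = 0.0152). The count was 0 without siNS replicate 3 or siNFKB2 replicate 2, 2 without siNS replicate 2 or siRELB replicate 1, 3 without siNFKB2 replicate 1, 5 without siNS replicate 1 and 9 with the 3 libraries numbered 1 left out. Calls over all genes in those last 2 settings were 4895 and 6711. With the replicate block 8 regulators were called against siNS, 6 higher and 2 lower, where calls over all genes went from 3869 to 5944. In siRELB against siNS, where 2.02% of all genes were called, none was called by edgeR or DESeq2. None had an unadjusted edgeR p below 0.05, where at least 2475 of all 14815 genes did. Between the knockdowns MAPK3 was higher (log2 0.51, adjusted p = 0.0135) and FOXO3, a transcription factor that activates BCL2L11, was lower in siNFKB2, at 19.6 ± 4.97 against 39.7 ± 2.08 CPM (log2 -1.02, adjusted p = 0.00746). With the replicate block 8 of the 13 were called between the knockdowns, 7 higher and 1 lower, where calls over all genes went from 3934 to 6054. FOXO3 against siNS was at log2 -0.57 (adjusted p = 0.0814).

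The genes most like BCL2A1 in pattern were sought among 10614 genes whose mean level over all 9 libraries reached 5 CPM. Likeness was measured by Pearson's r of log2(CPM + 0.5) over the 9 libraries. The values are descriptive, since these libraries share their groups and their depth. CCL20, a chemokine, followed it most closely (r = 0.994), at mean levels of 2.05 CPM in siNS, 33.4 in siNFKB2 and 2.43 in siRELB. NKIRAS1, an inhibitor of NF-kB signalling, followed at r = 0.993 with a smaller log2 value of 0.68 in siNFKB2 against siNS. The noncoding RNA gene LINC02085 (r = 0.992), the single-stranded DNA-binding protein gene NABP1 (0.988) and the cytokine gene IL1A (0.986) came next. CCL20 and IL1A (3.81 CPM in siNS, 28.9 in siNFKB2 and 4.74 in siRELB) reached a mean of 5 CPM only through siNFKB2. The rise of these genes in siNFKB2 is fixed by their choice for likeness to BCL2A1. For BMF, the member with the largest called fall, the 5 closest were CCDC97 (r = 0.991), CEP41 (0.989), SKA3, a kinetochore gene (0.987), GLMP (0.978) and ZBED3 (0.978). Their log2 values in siNFKB2 against siNS ran from -0.62 (CCDC97) to -1.71 (GLMP), a direction that the choice by likeness to BMF fixes.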

How the data were processed

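Gene expression was measured in 9 U2OS libraries, 3 per group, grouped and numbered by their labels. The authors deposited whole-number read counts per gene symbol for each library, with no normalization. Per the submitters' processing notes, the tools were Trimmomatic 0.38, STAR 2.7.1a and Subread 1.6.4 and the build was GRCh38.p13. Their roles and settings, the annotation and strand use were not given in the sources used here. From these counts, filterByExpr of edgeR 4.0.16 (R 4.3.3) kept 14815 genes, libraries were scaled by TMM, and all 9 libraries entered 1 model with a mean for each of the 3 groups. Comparisons were tested by quasi-likelihood F tests in edgeR, p-values were adjusted over the 14815 genes (Benjamini-Hochberg), and calls required an adjusted p under 0.05. SE is the absolute log2 fold change over the square root of F, and 95% intervals use the test's degrees of freedom. The procedure was tested on simulated data, drawn independently for each library. Shared deviations of same-numbered libraries were not simulated, so that test does not cover them.

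The alternatives were RLE size factors, DESeq2 1.42.0, no filter, only the 6 libraries compared, a replicate block, suffixed entries of a symbol summed with it (no member has any), each library left out, and the 3 libraries numbered 1 left out. No 2 libraries were alike within sampling noise (chi-square per degree of freedom of at least 3.27 within groups). The labels do not say what a replicate number stands for. Deviations of same-numbered siNFKB2 and siRELB libraries correlated at 0.54, 0.17 and 0.45. As each was above 0.1, the numbers were taken as possible pairs in that comparison. However, siRELB replicate 2 correlated better with siNFKB2 replicate 3 (0.258) than with its own number. The main values of that comparison come from the model without a block, and values with the replicate block are given beside some of them.

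All 10 members are named in each comparison, with other family genes that were called, up to 6 called genes of each further list, and the 5 genes closest in pattern to BCL2A1 and to the member with the largest fall. Members, lists and rules were chosen with earlier results of these data known. Overlaps and exonic lengths come from GENCODE 29 (GRCh38). The counting may have used another annotation. Some genes of the lists are counted in them but not reported here by name.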

Additional observations from a re-analysis of the deposited data

How the results depend on the processing

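The count of members called between siNFKB2 and siNS was 5 and ranged from 4 to 7 with 1 library left out. It was 8 with the 3 libraries numbered 1 left out. The count between siNFKB2 and siRELB was 5 and ranged from 4 to 7, and that between siRELB and siNS was 0 under all 16 alternatives. With the replicate block it was 7, 7 and 0 for siNFKB2 against siNS, siNFKB2 against siRELB and siRELB against siNS. That block also raised the calls over all genes, from 3869 to 5944 in siNFKB2 against siNS and from 3934 to 6054 between the knockdowns. Against siNS the added calls were BCL2L11 (adjusted p = 0.0212) and BIK (0.00724), and the block changed no other member's call there. Deviations of same-numbered siNS and siNFKB2 libraries correlated at 0.585, 0.0545 and 0.0914, so that only the replicate 1 libraries deviated clearly together. Instead, siNS replicate 2 correlated best with siNFKB2 replicate 3 (0.569). For same-numbered siNS and siRELB libraries the values were 0.594, 0.376 and 0.0439. Whether the numbers pair siNS and siNFKB2 libraries is therefore not settled. No call reversed its direction. BCL2A1, BCL2L1, BAK1 and BMF kept their calls against siNS and between the knockdowns under every alternative, with BCL2L1 closest to the threshold (largest adjusted p 0.0497). The count of all genes called in siNFKB2 against siNS ran from 2220 without siNFKB2 replicate 2 to 6711 without the 3 libraries numbered 1, and in siRELB against siNS from 15 without siRELB replicate 2 to 3390 without those 3. The cause of these shifts was not tested. The fall of NFKB2 in siNFKB2 lost its call with only the 6 libraries compared (adjusted p = 0.0502) and without siNS replicate 2, siNS replicate 3 or siNFKB2 replicate 2 (0.0532, 0.0667 and 0.0936), and that of RELB in siRELB without siNS replicate 3 or siRELB replicate 2 (0.0575 and 0.0591). Depth limits BMF and, in siNS and siRELB, BCL2A1, which rest on 8 to 60 and 15 to 49 reads.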

Other observations

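The replicate 1 library of BCL2 was the highest of each group, at 23.5 CPM in siNS, 23.6 CPM in siNFKB2 and 19.5 CPM in siRELB, while the other 6 libraries lay between 11.8 and 15.1 CPM. What the replicate number stands for is not given in the labels.

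BIK was the lowest in replicate 1 of each group (4.89, 7.09 and 6.15 CPM), the reverse of BCL2. Between siNFKB2 and siNS libraries of the same number, BIK differed by log2 0.53, 1.17 and 0.69 and BID by 0.27, 0.36 and 0.25. The numbers are not shown to pair these libraries. For both genes the groups overlapped, and neither passed the test.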
